A study of Mus musculus with 8 samples.

Results

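Y RNAs, 7SK, 7SL, the RNA subunits of RNase MRP and RNase P, and a vault RNA are short noncoding RNAs that work inside ribonucleoprotein particles, and their fragments are read in small RNA sequencing of germ cells. The fragments described here came from 8 mouse genes, Rny1, Rny3, Rn7sk, Rn7s1, Rn7s2, Rmrp, Rpph1 and Vaultrc5, out of 55450 genes in the GENCODE M21 transcript annotation (GRCm38). A read was counted when its sequence, of 18 to 40 nt, was found exactly and on the sense strand in a transcript of these genes, so the rule used sequence and no measured level. Rn7s1 and Rn7s2 have the same 300 bases, with 0 differences, and their reads were counted once, as 7SL, which left 7 RNAs. No sequence matched more than 1 of these 7 RNAs.

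Small RNA was sequenced from male mouse primordial germ cells (mPGCs), the embryonic precursors of sperm, and from male primordial germ cell-like cells (mPGCLCs), which are made in culture from embryonic stem cells (ESCs). There were 4 groups with 2 libraries each: mPGCs of 3 embryonic days, with the group names E12.5, E13.5 and, for the oldest, E15.5, and mPGCLCs at day 6 of culture. The comparisons ask how small RNAs differ between successive mPGC stages and between mPGCLCs and mPGCs. Libraries of other mPGCLC lines and of embryoid body cells in the paper were not analysed here. The mPGCs were of GOF18 origin, a line with a germ cell EGFP reporter. By the labels their strain was C57BL/6J and they were sorted on SSEA1 and CD61, while in the paper the background is a mixed FVB/C57BL/6J and the sort is on EGFP. Cells of 2 embryos went into an mPGC library, and litters differed between replicates. The mPGCLCs all came from 1 ESC line, SGET (strain B6CBA/129), and were sorted from embryoid bodies as Stella-GFP positive and Esg1-tdTomato negative cells, so the cell type cannot be told apart from the line and strain. The labels give no treatment or mutation for any group.

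The deposited values were raw counts of each distinct sequence, and file totals were 7447873 and 13614516 in E12.5, 12043363 and 19734948 in E13.5, 13601492 and 26552524 in E15.5, and 10209580 and 9526338 in SGET mPGCLCs (replicates 1 and 2, in that order here and below). The adapters' random bases were trimmed off and did not serve to mark molecules, so PCR copies are part of each count. Intervals below are 95% Wilson intervals, or exact binomial ones for pooled ratios, and they and the floor of 3 counts that a count of 0 allows describe only the error of counting. For groups of 2 libraries, 0.33 is the smallest p of the two-sided exact permutation test, reached when the groups do not overlap.

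Y RNAs are RNA polymerase III transcripts that bind the proteins Ro60 and La, and their 5′ and 3′ ends pair into a stem from which cells release fragments. 7SK holds the transcription elongation factor P-TEFb inactive together with Larp7 and Hexim1, 7SL is the scaffold of the signal recognition particle, and RNase MRP and RNase P are related ribozymes that process ribosomal RNA and transfer RNA precursors. Vault RNAs are part of vault particles in the cytoplasm.

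The cells were checked against miRNA markers. Of 14 listed miRNAs of germ cells and pluripotency, 11 and 12 were detected in E12.5, 11 and 12 in E13.5, and 12 in each library in E15.5 and in SGET mPGCLCs. Mir290b and Mir292b were at 0 in all 8 libraries. Their summed level was 39270 and 61489 counts per 1000000 reads of the file total (CPM) in E12.5, 31972 and 45598 in E13.5, 3194 and 2485 in E15.5, and 59030 and 93017 in SGET mPGCLCs, and the most abundant was Mir292 in each library. Markers of this joint list of germ cells and pluripotency were thus present in all 8 libraries, and their summed level was lowest in both E15.5 libraries. Of 7 miRNAs of gonadal soma and mesenchyme, 6 and 7 were detected in E12.5, 7 in each E13.5 and E15.5 library, and 5 and 6 in SGET mPGCLCs. Their summed level was 372 and 423 CPM, 429 and 1271, 148 and 279, and 870 and 1657 in the same order. Mir202 was the most abundant in 4 of the mPGC libraries. In E13.5 replicate 2 and E15.5 replicate 2 it was Mir199a-2, close above Mir199a-1. Mir199a-1 and Mir199a-2 led together in SGET replicate 1, with 5019 counts each, and Mir143 led in SGET replicate 2. Mir202 was at 0 in both SGET libraries. The endothelial miRNA Mir126a had 17.5 and 45.8 CPM in E12.5, 36.6 and 60.1 in E13.5, 0.0735 and 1.32 in E15.5, and 69.4 and 27.3 in SGET mPGCLCs. Of 3 miRNAs of megakaryocytes and white blood cells, 2 and 2, 0 and 3, 3 and 3, and 2 and 0 were detected, with summed levels of 19.9 and 22.99 CPM in E12.5, 0 and 25.03 in E13.5, 9.93 and 1.66 in E15.5, and 11.7 and 0 in SGET mPGCLCs. Mir142 was the most abundant in E12.5 and in E13.5 replicate 2, Mir223 and Mir150 in E15.5, and Mir150 in SGET replicate 1. Of 3 red blood cell miRNAs, 0 and 1, 0 and 3, 1 and 2, and 1 and 0 were detected, with summed levels of 0 and 18.2 CPM, 0 and 19.2, 1.62 and 18.8, and 0.0979 and 0, led by Mir486, while Mir451a had 2 counts in E13.5 replicate 2, 2 in E15.5 replicate 2 and 0 elsewhere. The soma and endothelial markers were also lowest in E15.5 in CPM, but per miRNA-matching read the soma markers were higher in both E15.5 libraries than in the other mPGC libraries. The part of other cell types in the levels below was not tested.

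Together the 7 RNAs took 0.236% of all reads (interval 0.233 to 0.240) and 0.229% (0.227 to 0.232) in E12.5, 0.157% (0.155 to 0.160) and 0.261% (0.259 to 0.264) in E13.5, 0.0346% (0.0336 to 0.0356) and 0.0436% (0.0428 to 0.0444) in E15.5, and 0.353% (0.349 to 0.356) and 0.307% (0.304 to 0.311) in SGET mPGCLCs. By exact match both E15.5 libraries lay below all others and both SGET libraries above all others, while E12.5 and E13.5 overlapped. This order did not hold per miRNA-matching read. With reads counted whose last base is an A that differs from the transcript or lies past its end, SGET replicate 2 lay below E13.5 replicate 2. It did so with 1 mismatch allowed as well. By exact match, group means were 0.233% ± 0.00508 in E12.5, 0.209% ± 0.0736 in E13.5, 0.0391% ± 0.00638 in E15.5 and 0.33% ± 0.0319 in SGET mPGCLCs (SD, n = 2). The E15.5 mean was 0.187 ± 0.0724 times the E13.5 mean (propagated SD). The denominator set the direction of this difference: per miRNA-matching read the ratio was 1.70, with both E15.5 libraries above both E13.5 libraries. Per read other than 24 to 33 nt with a 5′-U it was 0.478, with all reads of the 7 RNAs kept in the numerator. Such other reads were 94.5% and 91.8% of the file total in E12.5, 89.9% and 83.2% in E13.5, 35.2% and 32.3% in E15.5, and 95.4% in each SGET library. Reads matching miRNA genes were 14.01% and 22.7%, 15.7% and 22.99%, 2.35% and 2.02%, and 16.9% and 25.96% in the same order. A lower share of reads for an RNA, less of its fragments per cell and fewer cells holding them cannot be told apart.

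**Figure D1:**
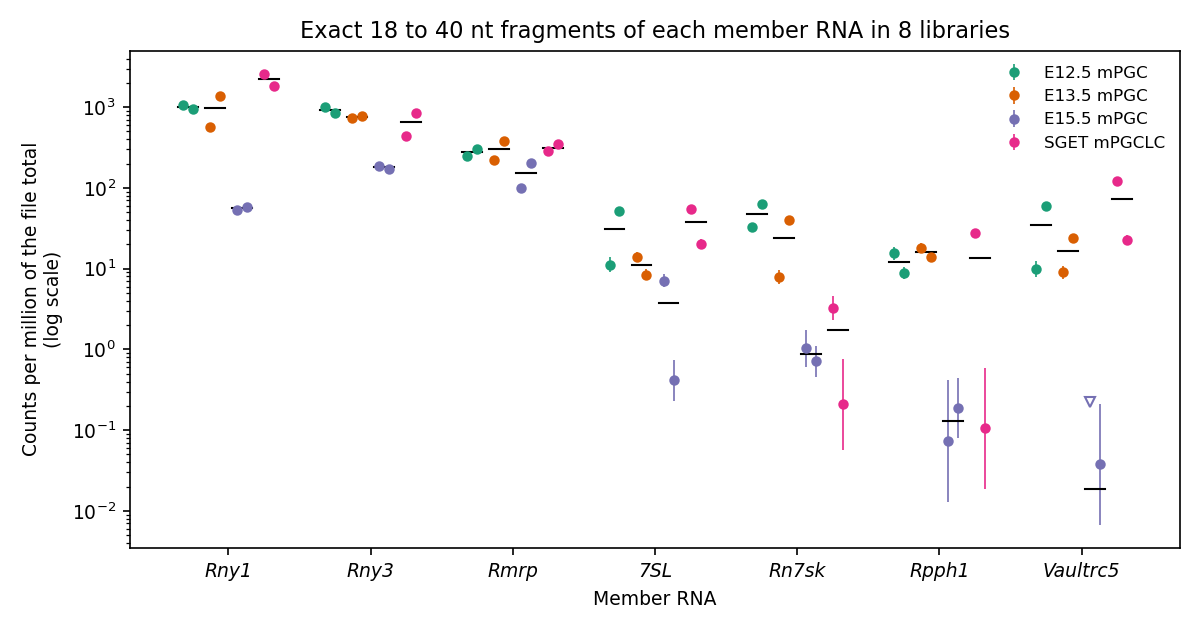
Level of exact 18 to 40 nt fragments of each RNA in each of the 8 libraries, in CPM on a log axis. Points are libraries with 95% Wilson intervals, black bars are group means, and the open triangle marks a library with no count, drawn at the floor of 3 counts. Rny1, Rny3 and Rmrp lie above 50 CPM in every library, and all 7 RNAs are lower in both E15.5 libraries than in every other mPGC library, an order that per miRNA-matching read turns for Rny3 and Rmrp and is lost for 7SL, as it is in CPM for 7SL with reads counted that end in a differing or added A, while with DESeq2 the log2 fold change from E13.5 to E15.5 turns for Rny1, Rny3 and Rmrp. For Rn7sk the order is lost with sequences in no other gene.

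For the tests, 7362 genes or groups of genes sharing sequences passed edgeR's filter on low counts, and all 7 RNAs were among them. Between E13.5 and E12.5, 0 of the 7 RNAs passed an adjusted p of 0.05 in edgeR's quasi-likelihood test after Benjamini-Hochberg adjustment, 0 had an unadjusted p under 0.05 and 0 passed in DESeq2, beside 0.231%, 4.92% and 2.15% of all features tested. Between E15.5 and E13.5, 1 of 7 passed in edgeR, in the lower direction, beside 0.924% of all features called in either direction and 0.598% called lower. An unadjusted p under 0.05 was found for 3 of 7, beside 6.87% of all features in edgeR, and with DESeq2 0 of 7 passed, beside 10.3% of all features, with 726 higher and 33 lower. Between SGET mPGCLCs and E12.5 mPGCs, 0 of 7 passed in edgeR, 0 had an unadjusted p under 0.05 and 0 passed in DESeq2, beside 0.353%, 4.54% and 2.53% of all features. Against E13.5 mPGCs these counts were again 0, 0 and 0 in edgeR, unadjusted and in DESeq2, beside 1.55%, 9.92% and 3.41% of all features. The median log2 fold change of the 7 RNAs was -0.28, -4.11, 0.20 and 0.07 in these 4 comparisons, beside 1.22, -0.33, -1.24 and -7.45 over all features. In E15.5 minus E13.5 the median is the value of Rny1 itself. With miRNA-matching reads as library size the median of all features in that comparison was 2.77, and with TMM normalization 0.00254. The comparisons share groups, so they are not independent.

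Rny1, the longer of the mouse Y RNAs at 112 nt, had 1053 CPM (interval 1030 to 1076) and 958 (942 to 975) in E12.5, 574 (560 to 587) and 1362 (1346 to 1379) in E13.5, 54.0 (50.2 to 58.0) and 57.8 (55.0 to 60.7) in E15.5, and 2592 (2561 to 2623) and 1832 (1805 to 1859) in SGET mPGCLCs. By exact match in CPM both E15.5 libraries were far below the other 6 and both SGET libraries were above all others. With reads counted that end in a differing or added A, SGET replicate 2 lay below E13.5 replicate 2 (2922 against 2984 CPM). E12.5 lay within the span of E13.5 either way. By exact match the mean in E15.5 was 55.9 ± 2.69 CPM against 968 ± 558 in E13.5 (SD, n = 2), a ratio of 0.0577. The 2 E15.5 values were close in level but not in content. In replicate 2, 928 of 1534 Rny1 reads (34.9 CPM) were 1 sequence of 39 nt, bases 73 to 111, which had 1 read in replicate 1. Rny1 was the RNA that passed the test: from E13.5 to E15.5 it fell by 4.11 on the log2 scale (standard error 0.84, adjusted p = 0.000316 in edgeR's quasi-likelihood test after Benjamini-Hochberg adjustment), lower in 2 of 2 libraries, where the median of all features was -0.33 and where the direction turned with DESeq2's size factors, to 0.07. The call ended with TMM normalization, at -2.51 (adjusted p = 0.549 in edgeR), with miRNA-matching reads as library size, at -0.89 (adjusted p = 0.821 in edgeR), and without E13.5 replicate 2, at -3.36 (adjusted p = 0.0561 in edgeR). Against miRNA-matching reads Rny1 came to 0.366% and 0.592% in E13.5 and 0.230% and 0.286% in E15.5.

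In SGET mPGCLCs the mean of Rny1, 2212 ± 537 CPM (SD, n = 2), was 2.20 times that in E12.5 and 2.29 times that in E13.5. These differences did not pass the test, with log2 fold changes of 1.14 (adjusted p = 0.652) and 1.19 (adjusted p = 0.440) in edgeR's quasi-likelihood test. By exact match in CPM 2 of 2 libraries were higher in each, while per miRNA-matching read SGET replicate 2 lay below E12.5 replicate 1. With reads counted that end in a differing or added A, SGET replicate 2 lay below E13.5 replicate 2 in CPM. With 1 mismatch allowed it did so as well, at 3109 against 3117 CPM.

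Rny3, of 102 nt, lies 6343 bases from Rny1 on chromosome 6, on the opposite strand. It had 996 and 848 CPM in E12.5, 728 and 785 in E13.5, 185 and 174 in E15.5, and 440 and 852 in SGET mPGCLCs. The E15.5 libraries were again the lowest in CPM, though the highest per miRNA-matching read, and the SGET libraries spanned both E13.5 values. Means were 922 ± 104, 757 ± 40.05, 179 ± 8.16 and 646 ± 292 CPM (SD, n = 2). The log2 fold change from E13.5 to E15.5, -2.08 with a standard error of 0.93, did not pass (adjusted p = 0.630 in edgeR's quasi-likelihood test), and it was 1.03 with miRNA-matching reads as library size and 1.99 with DESeq2.

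The number of Rny1 reads per Rny3 read does not depend on library size; it was chosen after the values were seen and is not corrected for length. It was 1.06 and 1.13 in E12.5, 0.787 and 1.74 in E13.5, 0.291 and 0.333 in E15.5, and 5.89 and 2.15 in SGET mPGCLCs. Rny3 thus gave more exact reads in E15.5 and Rny1 gave more in SGET mPGCLCs. With reads counted that end in a differing or added A the ratio was 1.44 and 1.92 in E12.5, 1.41 and 2.66 in E13.5, 0.329 and 0.337 in E15.5, and 7.14 and 3.04 in SGET mPGCLCs, so that in E13.5 replicate 1 the larger of the 2 turned from Rny3 to Rny1. By exact match the mean ratio was 0.312 ± 0.0292 in E15.5 against 1.26 ± 0.670 in E13.5, and 4.02 ± 2.65 in SGET mPGCLCs against 1.09 ± 0.0511 in E12.5, without overlap in either pair (SD, n = 2, two-sided exact permutation p = 0.33).

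The ends read from the 2 Y RNAs differed in part. A fragment is called 5′ end when it starts within 5 nt of the first annotated base, 3′ end when it ends within 5 nt of the last base and is not 5′ end, and middle otherwise. Rny1 reads were from the 3′ end in 76.4% and 82.1% in E12.5, 92.2% and 81.9% in E13.5, 71.0% and 76.3% in E15.5, and 75.0% and 59.1% in SGET mPGCLCs. The 3′ end thus led in all 8 libraries. Rny1 reads that ended at base 106 of 112 lay just outside the 3′ window and count as middle. They were 14.7% and 15.6% of its reads in SGET mPGCLCs, 9.58% in E12.5 replicate 2 and 9.32% in E15.5 replicate 2. In SGET replicate 2 base 105, also outside the window, was another frequent last base. How far the SGET 3′ shares of Rny1 lie below the others thus depends on the window. Rny3 reads were from the 5′ end in 42.4% and 46.0% in E12.5, 45.2% and 42.1% in E13.5, 64.9% and 63.0% in E15.5, and 61.8% and 81.0% in SGET mPGCLCs. The 5′ end was the largest class of Rny3 in 7 of 8 libraries, and in E12.5 replicate 1 the 3′ end led with 45.0%, but with reads counted whose last base is an A that differs from the transcript or lies past its end, a choice made after the data were seen, the 3′ end of Rny3 led in 4 of 8 libraries, both of E12.5, E13.5 replicate 2 and SGET replicate 1. The E15.5 and SGET libraries all lay above the E12.5 and E13.5 libraries in the 5′ share, also with such reads counted (for exact matches two-sided exact permutation p = 0.33 for each comparison). In E13.5 replicate 1, 14.7% of Rny3 reads ended at base 96 of 102, just outside the 3′ window, and count as middle. Which end of Rny3 led in that library by exact match thus depends on the window.

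**Figure D2:**
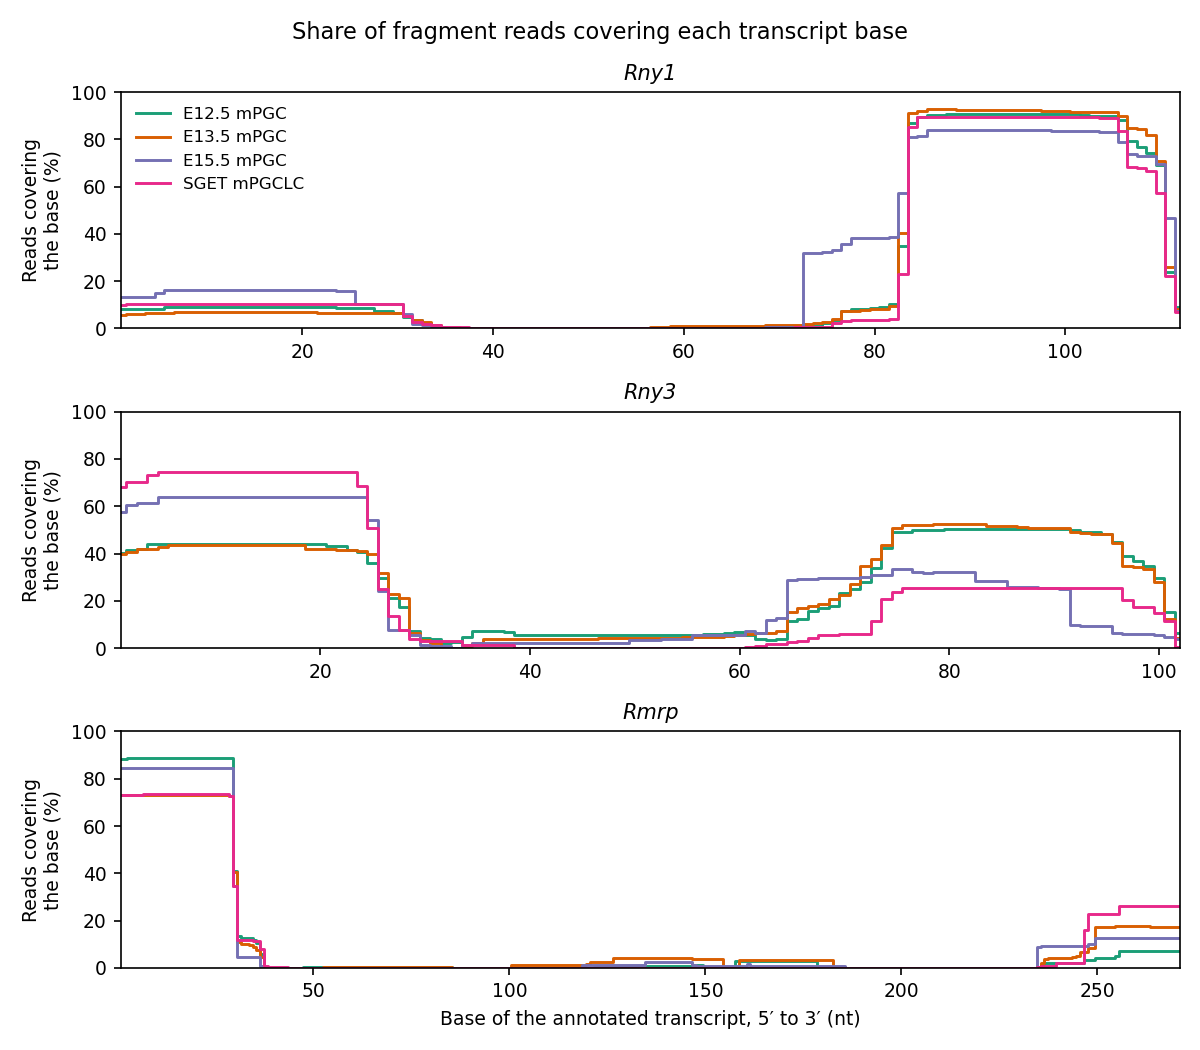
Percent of an RNA's fragment reads, by exact match, that cover each base of its annotated transcript, 5′ to 3′, for Rny1, Rny3 and Rmrp, with 1 line per group for the mean of its 2 libraries. Rny1 reads pile up toward the 3′ end, Rny3 reads at both ends, with more at the 5′ end in E15.5 and in SGET mPGCLCs, and Rmrp reads in the first 30 bases. The E15.5 line of Rny1 rises earlier along the transcript than the lines of the other groups, which comes from replicate 2 alone.

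The median length of Rny1 fragments was 39 nt in E15.5 replicate 2 and 27 or 28 nt in the other 7 libraries, and lengths of 25 to 30 nt made up 66.8% to 87.8% of its reads in those 7. Of 160 distinct Rny1 fragments, 10 were found in all 8 libraries and held 71.5% of its reads. Reads that also match other genes were at most 12.52% of Rny1 reads, in SGET replicate 2, and 0% of Rny3 reads.

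Of 217 distinct Rny3 fragments 3 were found in all 8 libraries and held 29.7% of its reads. The median length of Rny3 fragments was 27 or 28 nt in E12.5 and E13.5, and 25 or 26 nt in E15.5 and in SGET mPGCLCs. Fragments whose last base differs from the transcript are not part of the exact matches, and for Rny1 those of the 3′ end with an A that differs or lies past the annotated end came to 86699 reads over the 8 libraries. With 1 mismatch allowed, the log2 fold change of Rny1 from E13.5 to E15.5 was -4.95 (adjusted p = 1.24e-09 in edgeR's quasi-likelihood test).

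Rmrp, the RNA of RNase MRP, was the third RNA with at least 100 counts in all 8 libraries. It had 247 and 305 CPM in E12.5, 222 and 380 in E13.5, 98.6 and 203 in E15.5, and 286 and 347 in SGET mPGCLCs. The E15.5 libraries were the lowest in CPM, with E15.5 replicate 2 close below E13.5 replicate 1, and the highest per miRNA-matching read, and the other 3 groups overlapped. Means were 276 ± 40.7, 301 ± 112, 151 ± 74.1 and 317 ± 43.4 CPM (SD, n = 2), and the ratio of the E15.5 to the E13.5 mean was 0.501 in CPM and 4.65 per miRNA-matching read. From E13.5 to E15.5 the log2 fold change of Rmrp was -0.997 (standard error 1.21, adjusted p = 0.927 in edgeR's quasi-likelihood test), but 0.84 with TMM normalization, 2.22 with miRNA-matching reads as library size and 3.54 with DESeq2. In the other comparisons it was 0.13 for E13.5 minus E12.5, 0.20 for SGET mPGCLCs minus E12.5 and 0.07 for SGET mPGCLCs minus E13.5. Each was smaller than its standard error and turned negative under at least 1 scaling. By exact match Rmrp had 1.83 and 3.52 reads per Rny1 read in E15.5, and from 0.110 to 0.387 in the other 6 libraries.

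Rmrp reads came from the 5′ end in 87.7% and 90.0% in E12.5, 52.2% and 85.6% in E13.5, 79.9% and 86.8% in E15.5, and 90.1% and 59.5% in SGET mPGCLCs, so the 5′ end led in all 8 libraries. The 3′ end share was highest in SGET replicate 2, at 40.5%. A single 30-nt sequence, chr4:43493030-43493059 (minus strand, GRCm38), was the most abundant Rmrp sequence by mean level in all 4 groups, though another led in E13.5 replicate 2, and held 39.6% of all Rmrp reads. It starts 1 base before the first base of the shorter GENCODE transcript, of 271 nt, at the first base that RefSeq gives for Rmrp, so the longer GENCODE transcript, of 281 nt, is printed here, 5′ to 3′, with that sequence in capitals to show where it lies (chr4:43492783-43493063, minus strand).
Rmrp: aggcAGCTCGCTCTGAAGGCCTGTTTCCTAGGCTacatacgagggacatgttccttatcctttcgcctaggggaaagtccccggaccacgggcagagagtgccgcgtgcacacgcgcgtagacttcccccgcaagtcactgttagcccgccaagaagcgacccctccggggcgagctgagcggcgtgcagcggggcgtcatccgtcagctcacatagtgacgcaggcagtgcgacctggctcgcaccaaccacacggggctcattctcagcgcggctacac

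This Rmrp fragment had 122 and 138 CPM in E12.5, 62.0 and 126 in E13.5, 59.0 and 88.8 in E15.5, and 105 and 134 in SGET mPGCLCs. In CPM both E15.5 libraries were below both E12.5 and both SGET libraries, an order that turned per miRNA-matching read, and E13.5 overlapped with E15.5. Its 5′ end was shared by most Rmrp reads, since 52.2% to 90.1% of them started at that base in each library. Of 53 distinct Rmrp fragments, 4 were found in all 8 libraries and held 77.1% of reads, and 0% of Rmrp reads matched any other gene. Their median length was 30 or 31 nt in all 8 libraries.

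Rpph1, the RNA of RNase P, which removes the 5′ leader of transfer RNA precursors, had far fewer reads, with 15.4 and 8.81 CPM in E12.5, 18.1 and 13.8 in E13.5, 0.0735 and 0.188 in E15.5, and 27.3 and 0.105 in SGET mPGCLCs. These were 115 and 120, 218 and 272, 1 and 5, and 279 and 1 counts. By exact match both E15.5 libraries were far below both E12.5 and E13.5 libraries, and the SGET libraries stood 260-fold apart. With 1 mismatch allowed E15.5 replicate 1 had 7.94 CPM, close below the 8.89 of E12.5 replicate 2, while E15.5 replicate 2 stayed at 0.188. Pooled over libraries, the ratio of E15.5 to E13.5 was 0.00969 (95% counting interval 0.00354 to 0.0212), and per miRNA-matching read the ratio of means was 0.0711. The fitted log2 fold change, -6.82, did not pass the test (adjusted p = 0.758 in edgeR's quasi-likelihood test), and it was -2.01 with 1 mismatch allowed. In E15.5 replicate 1, 74 reads of the Rpph1 3′ end differed in their last base, beside 1 exact read. No exact Rpph1 read came from the 5′ end of the GENCODE transcript in any library. RefSeq places the first base of Rpph1 at 50807771, upstream of the GENCODE first base at 50807767 (minus strand). Reads that start at the RefSeq first base could therefore not match exactly. By the 5 nt window 58.5% to 67.8% of its reads in E12.5 and E13.5 were classed as middle and the rest as 3′ end. A single 28-nt sequence of bases 286 to 313 of 319, just outside the 3′ window, held 96.1% of the reads of SGET replicate 1. It was also the whole middle class of E13.5 replicate 1, with 59.6% of reads, so the class there depends on the window. Of Rpph1 reads, 45.0% in E12.5 replicate 2 and 28.3% in E13.5 replicate 2 also matched another gene, and 0% in the other 6 libraries.

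Rn7sk gives 7SK, the RNA that keeps P-TEFb inactive. It had 32.6 and 62.5 CPM in E12.5, 7.81 and 39.5 in E13.5, 1.03 and 0.716 in E15.5, and 3.23 and 0.210 in SGET mPGCLCs, which were 243 and 851, 94 and 780, 14 and 19, and 33 and 2 counts. Both E15.5 and both SGET libraries were below all 4 earlier mPGC libraries. By exact match, Rn7sk was the only one of the 7 RNAs whose SGET libraries both lay below all E12.5 and E13.5 libraries in CPM, while in percent of miRNA-matching reads this held for Rny3 as well, with 0.260% and 0.328% in SGET mPGCLCs against 0.341% in the lowest E12.5 or E13.5 library. Pooled over libraries, the ratio of E15.5 to E13.5 was 0.0299 (95% counting interval 0.0204 to 0.0423), that of SGET mPGCLCs to E12.5 was 0.0341 (0.0237 to 0.0478) and that of SGET mPGCLCs to E13.5 was 0.0645 (0.0446 to 0.0904). Per miRNA-matching read the ratio of means of E15.5 to E13.5 was 0.358. The log2 fold changes of -4.75, -4.78 and -3.77 had standard errors of 3.36, 3.37 and 3.21 and did not pass the test (adjusted p = 0.758, 0.652 and 0.440 in edgeR's quasi-likelihood test). They were -3.53, -1.67 and -0.33 with 1 mismatch allowed and -4.57, -2.88 and -2.07 with sequences in no other gene. From E13.5 to E15.5 the value was -1.48 with miRNA-matching reads as library size and -0.90 with DESeq2. Without E13.5 replicate 1 or 2 it was -5.49 or -3.15. Without SGET replicate 1 or 2 the change in SGET mPGCLCs was -7.77 or -3.88 against E12.5. Against E13.5 it was -6.76 or -2.87. SGET replicate 2 also had 331 Rn7sk reads (34.7 CPM) from the 3′ end with a differing last A, beside its 2 exact reads, and with these counted it lay above E12.5 replicate 1 and E13.5 replicate 1. Few distinct sequences stood behind these counts, since of 50 distinct Rn7sk fragments 46 were found in 1 library only and held 98.5% of reads. In the mPGC libraries 57.9% to 100% of Rn7sk reads also matched another gene, and in SGET mPGCLCs 0%. That share was 100% in E13.5 replicate 1. With sequences in no other gene both SGET and both E15.5 libraries therefore lay above E13.5 replicate 1, and the order given above is lost. By exact match, 99.6% and 100% of Rn7sk reads in E12.5 were from the middle of the RNA. This share was 40.4% and 67.1% in E13.5, 0% and 89.5% in E15.5, and 100% in each SGET library.

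7SL, from Rn7s1 and Rn7s2 on chromosome 12, had 11.1 and 51.2 CPM in E12.5, 13.9 and 8.46 in E13.5, 7.13 and 0.414 in E15.5, and 55.3 and 20.0 in SGET mPGCLCs. By exact match its replicates differed 4.59-fold, 1.65-fold, 17.2-fold and 2.76-fold, and the SGET libraries overlapped with E12.5 but lay above both E13.5 libraries in CPM, though not per miRNA-matching read. In exact reads the E15.5 libraries were below both E13.5 libraries, with -1.57 as log2 fold change (adjusted p = 1 in edgeR's quasi-likelihood test, standard error 2.81), which was 1.37 with miRNA-matching reads as library size, -4.73 without E15.5 replicate 1, -0.65 without E15.5 replicate 2 and -3.36 with 1 mismatch allowed. E15.5 replicate 2 also had 1271 7SL reads (47.9 CPM) whose last base was an A that differs or lies past the annotated end, beside 11 exact reads. With such reads counted 7SL had 57.2 and 115 CPM in E12.5, 81.8 and 28.8 in E13.5, 8.01 and 48.3 in E15.5, and 68.8 and 38.4 in SGET mPGCLCs, so E13.5 overlapped with E15.5 and with SGET mPGCLCs. From 90.9% to 100% of 7SL reads in each library also matched another annotated gene, so most of these reads cannot be told apart from fragments of other transcripts with 7SL sequence. Of 56 distinct 7SL fragments 46 were found in 1 library only, with 77.8% of reads, and the leading sequence of each group was counted in 1 of its 2 libraries. The main region differed between libraries, from 2.06% of reads in the middle in E15.5 replicate 1 to 99.4% in E13.5 replicate 1.

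Vaultrc5, a vault RNA of 143 nt, had 9.80 and 58.9 CPM in E12.5, 8.97 and 24.2 in E13.5, 0 (floor 0.221) and 0.0377 in E15.5, and 122 and 22.8 in SGET mPGCLCs, which were 73 and 802, 108 and 478, 0 and 1, and 1245 and 217 counts. With 1 read in both E15.5 libraries together it was lowest there, while E12.5, E13.5 and SGET mPGCLCs overlapped. Pooled over libraries, the ratio of E15.5 to E13.5 was 0.00135 (95% counting interval 3.41e-05 to 0.00755), and the ratio of means per miRNA-matching read was 0.0115. The fitted change had an unadjusted p of 0.00824 and an adjusted p of 0.400 in edgeR's quasi-likelihood test, and it did not pass. The reads came mostly from the 3′ end, in 80.8% and 76.3% in E12.5, 100% and 67.8% in E13.5 and 100% in each SGET library. The leading fragment was of bases 117 to 143 in E12.5 and E13.5 and of bases 117 to 141 in SGET mPGCLCs, so they shared a first base. No Vaultrc5 read matched another gene.

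Over all 7 RNAs, the share of reads from the 5′ end was 32.0% and 32.6% in E12.5, 28.9% and 29.7% in E13.5, 61.8% and 66.4% in E15.5, and 21.6% and 36.9% in SGET mPGCLCs. This share depends on how many reads each RNA has, and within Rny1 and within Rmrp it overlapped between E15.5 and E13.5. Over all 7 the E15.5 libraries were higher than all others, and the 3′ share there was 18.7% and 19.6% against 44.8% to 64.2% in the other 6 libraries.

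Of a list of 26 other RNAs of ribonucleoprotein particles (telomerase RNA, spliceosomal and U3 RNAs, other RNase RNAs and mitochondrial ribosomal RNAs), 22 were in the annotation and 11 genes or groups of genes passed the filter. In each of the 4 comparisons 0 of these 11 passed in either direction in edgeR's quasi-likelihood test after Benjamini-Hochberg adjustment. At an unadjusted p under 0.05 there were 0, 4, 1 and 1 for E13.5 minus E12.5, E15.5 minus E13.5, SGET mPGCLCs minus E12.5 and SGET mPGCLCs minus E13.5, beside 4.92%, 6.87%, 4.54% and 9.92% of all features. DESeq2 called 0, 1, 1 and 1, in each case Terc, beside 2.15%, 10.3%, 2.53% and 3.41% of all features. From E13.5 to E15.5, with file totals as library size, 10 had a negative and 1 a positive log2 fold change. The median was -3.49, beside -4.11 for the 7 RNAs and -0.33 for all features. Per miRNA-matching read some of those 10 were higher in both E15.5 libraries than in both E13.5 libraries. In the other comparisons 7 were negative and 3 positive for E13.5 minus E12.5, with Terc at 0 (median -0.22), 7 and 4 for SGET mPGCLCs minus E12.5 (median -0.02), and 5 and 6 for SGET mPGCLCs minus E13.5 (median 0.47). Terc, the telomerase RNA, named here after its values were seen, had 366 and 821 counts in E15.5, 0 and 316 in SGET mPGCLCs and 0 in all E12.5 and E13.5 libraries.

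For each RNA with at least 100 counts in all 8 libraries, the gene with the most similar pattern was sought among 6045 tested single genes, by Pearson's r of log2 (CPM + 1) over the 8 libraries. For Rny1 it was Mir293, a miRNA of the pluripotency cluster, with r = 0.983 and Spearman's rho = 0.929, and r = 0.807 without both E15.5 libraries. For Rny3 it was Mir26b, with r = 0.971 and rho = 0.690, and r = 0.738 without both E15.5 libraries. For Rmrp it was Snord43, with r = 0.957 and rho = 0.714, and r = 0.884 without E13.5 replicate 2 and E15.5 replicate 1. Snord43 is by name a box C/D small nucleolar RNA, but the annotation used here gives it the biotype miRNA. These are descriptions of the closest of many genes, the points share library totals and groups, and the relations of Rny1 and Rny3 rest in part on the E15.5 libraries.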

How the data were processed

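Male mPGCs at 3 stages and SGET mPGCLCs were sequenced with 2 libraries per group. The authors removed adapters and random bases (cutadapt 3.2) and mapped to GRCm38 (STAR 2.5.3a), where reads with up to 100 places kept 1 at random and reads with more were dropped. They deposited raw counts per distinct sequence, which were not normalized. Totals per library are in the report, and 3 counts correspond to 0.113 to 0.403 CPM.

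Sequences of 18 to 40 nt were matched exactly, sense strand, to 141767 GENCODE M21 transcripts with Python 3.11.15, numpy 2.4.6, pandas 2.3.3, scipy 1.17.1 and numba 0.67.0. A sequence found in a member RNA was counted for it, also when it matched other genes, and the rest went first to small RNA biotypes and then to other genes. The tests ran in R 4.3.3 and used edgeR 4.0.16 (default filter, quasi-likelihood test, 4 groups in 1 fit, file totals as library size, Benjamini-Hochberg adjustment over all features of a comparison, threshold 0.05), and with DESeq2 1.42.0 as an alternative. Standard errors are those implied by the F statistic. Both tools were tested on simulated data, where they found most changed genes at a low dispersion and few or none at the dispersion of each gene here, where DESeq2 also called unchanged genes, in a larger share than its calls over all features in 3 of the 4 comparisons. For single values, two-sided exact permutation p values were computed.

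The members and the lists of markers (germ cell and pluripotency, red blood cell, megakaryocyte and white blood cell, endothelium, gonadal soma and mesenchyme) and of other ribonucleoprotein RNAs were chosen with earlier results of these data known. The text names all members, the most abundant sequence of a group by mean level where it is described (sequences of the Y RNAs and the vault RNA are not given), the most similar gene of each RNA with at least 100 counts in all libraries, and from the list of other RNAs those called with the largest change, up to 2 per comparison; Terc is an exception. Alternatives covered library size, tool, filter, samples fitted, replicate block, left-out replicates, mismatches, lengths, denominators, shared sequences and end windows. Ratios between member RNAs and fragments with a differing or added last base were added after seeing the data. No genome sequence was given, so genome copies and genome bases beyond annotated ends were not analysed.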

Additional observations from a re-analysis of the deposited data

Results flagged for a closer look

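Many reads of the Y RNAs matched the 3′ end of the transcript in all but their last base, which was an A that differs from the annotated base or lies past the annotated end. They lie outside the exact matches counted in the report, were looked at after seeing the data, and were included only in alternatives: those with a differing base where 1 mismatch was allowed, and all of them in an alternative on the ends read and in levels and ratios given beside the exact ones. For Rny1 they came to 86699 reads over the 8 libraries, 890 of them with the A past the annotated end, and for Rny3 to 17421, 521 of them past the end. Among all reads of the Rny1 3′ end that were exact or ended in such an A, the A-ended share was 53.1% and 59.7% in E12.5, 52.6% and 59.2% in E13.5, 22.1% and 18.3% in E15.5, and 41.7% and 50.2% in SGET mPGCLCs. Both E15.5 libraries were below the other 6, with a mean of 20.2% ± 2.67 against 55.9% ± 4.68 in E13.5 (SD, n = 2, two-sided exact permutation p = 0.33). For Rny3 the share was 46.8% and 48.4%, 30.1% and 52.3%, 45.6% and 68.5%, and 47.7% and 51.1% in the same order, and E15.5 overlapped with E13.5. Such reads were not limited to the Y RNAs: 7SL had 4020, of which 2330 were past the end (11.3% to 99.9% in a library), Vaultrc5 had 775, of which 345 were past the end (0.955% to 50.7% in the 6 libraries with any) and Rn7sk had 343, of which 331 were in SGET replicate 2. Rmrp had 1 and Rpph1 had 0. The origin of this base was not tested.

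Fragments of 15 to 17 nt that match the members exactly, which the tests left out and only the summed share over all lengths included, came to 2677 reads over the 8 libraries. Rmrp had 845 of them, 7SL 678, Rn7sk 582, Rny1 375, Rpph1 100, Rny3 97 and Vaultrc5 0. Per library they were 151 and 316 reads in E12.5, 625 and 386 in E13.5, 0 and 7 in E15.5, and 635 and 557 in SGET mPGCLCs, lowest in both E15.5 libraries.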

How the results depend on the processing

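Counts of reads are not counts of molecules, 2 libraries per group give little power, and RNAs with few reads (Rn7sk, 7SL, Rpph1, Vaultrc5) rest on 22 to 56 distinct sequences, of which those found in 1 library only hold most reads of Rn7sk and 7SL. Of 332 log2 fold changes under alternatives, 292 kept their direction and side of the threshold, 37 turned direction and 3 kept direction but lost the call, all 3 of Rny1 from E13.5 to E15.5. Where a group was left with 1 library, it is assumed to vary like the other groups. With sequences in no other gene, 7SL did not pass the filter and has no value. Transcripts extended by bases of genome and the number of genome copies were not run, since no genome sequence was given. What lies behind the differences below was not tested.

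The number of RNAs called from E13.5 to E15.5 was 0 with TMM normalization (1 at an unadjusted p under 0.05 in edgeR), 0 with miRNA-matching reads as library size (0 at an unadjusted p), 0 with DESeq2 (0 at an unadjusted p) and 0 to 1 with a replicate left out in edgeR, 0 without E13.5 replicate 2 (2 at an unadjusted p). In the other 3 comparisons it was 0 under each alternative in edgeR and DESeq2, with at most 1 at an unadjusted p under 0.05.

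Calls over all features (higher and lower, adjusted p under 0.05) whose total moved by over 1.5 times, or whose share of higher calls moved by over 10 percentage points, were as follows. From E12.5 to E13.5, 17 and 0 in edgeR became 7 and 0 with TMM normalization, 71 and 1 with miRNA-matching reads, 123 and 35 with DESeq2, 8 and 0 without the filter, and 1 and 0 or 7 and 0 without E12.5 replicate 1 or 2. From E13.5 to E15.5, 24 and 44 became 21 and 6 (TMM), 220 and 0 (miRNA-matching reads), 726 and 33 (DESeq2), 6 and 18 (no filter), 69 and 49 (only the 2 groups), 16 and 48 (replicate block), 2 and 34 or 14 and 22 without E13.5 replicate 1 or 2, and 9 and 42 or 3 and 22 without E15.5 replicate 1 or 2. For SGET mPGCLCs minus E12.5, 6 and 20 became 0 and 4 (TMM), 1 and 28 (miRNA-matching reads), 81 and 105 (DESeq2), 3 and 13 (no filter), 0 and 0 in edgeR with only the 2 groups (808 at an unadjusted p under 0.05), 8 and 15 (replicate block), 1 and 16 without E12.5 replicate 1, and 4 and 8 or 0 and 8 without SGET replicate 1 or 2. For SGET mPGCLCs minus E13.5, 11 and 103 became 2 and 25 (TMM), 3 and 181 (miRNA-matching reads), 51 and 200 (DESeq2), 4 and 69 (no filter), 0 and 1 (only the 2 groups), 12 and 58 (replicate block), 0 and 72 or 5 and 51 without E13.5 replicate 1 or 2, and 4 and 30 or 0 and 28 without SGET replicate 1 or 2.

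The summed share was 1.35%, 1.07% and 1.82% of miRNA-matching reads in the mPGC groups by rising age, and 1.64% in SGET mPGCLCs. With each distinct sequence counted once it was 0.116%, 0.0716% and 0.0299% in the mPGC groups, and 0.0491% in SGET mPGCLCs. With 1 mismatch allowed it was 0.400% in E12.5, 0.363% in E13.5 and 0.509% in SGET mPGCLCs. Without the most abundant sequence of each RNA it was 0.177% in E12.5, 0.0235% in E15.5 and 0.234% in SGET mPGCLCs. Divided by the reads other than 24 to 33 nt with a 5′-U it was 0.250% in E12.5 and 0.117% in E15.5. No member read was left out there. In E12.5 it was 0.239% over all lengths, 0.203% for 20 to 33 nt and 0.224% with sequences in no other gene. With a replicate left out the shares are those of the single libraries.

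The share of reads from the 5′ end in the mPGC groups, by rising age, was 33.9%, 30.1% and 71.6% for 20 to 33 nt and 17.3%, 19.1% and 26.5% with each distinct sequence counted once. With reads counted whose last base is a differing or added A, chosen after seeing the data, it was 20.796%, 18.645% and 55.7%. With the midpoint in the first of 3 equal parts it was 33.04% in E12.5 and 30.1% in E13.5.

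From E12.5 to E13.5, log2 fold changes turned to -0.40 (TMM), -0.0163 (miRNA-matching reads) and -0.62 (DESeq2) for Rmrp and to -0.11 (TMM) and -0.22 (DESeq2) for Rpph1. From E13.5 to E15.5 they turned to 0.0654 (DESeq2) for Rny1, to 1.03 (miRNA-matching reads) and 1.99 (DESeq2) for Rny3, to 1.37 (miRNA-matching reads) for 7SL, and to 0.84 (TMM), 2.22 (miRNA-matching reads) and 3.54 (DESeq2) for Rmrp. For SGET mPGCLCs minus E12.5 they turned to 0.24 (DESeq2) for Rny3, -0.57 (1 mismatch) for 7SL and -0.036 (miRNA-matching reads) for Rmrp. For SGET mPGCLCs minus E13.5 they turned to 0.27 (TMM) and 1.20 (DESeq2) for Rny3, -0.0197 (miRNA-matching reads) for Rmrp, and 0.49 (TMM) and 1.17 (DESeq2) for Rpph1.

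With the replicate number as a block, the log2 fold change of SGET mPGCLCs minus E12.5 turned to -0.27 for 7SL and -0.32 for Rpph1, and that of Rny1 from E13.5 to E15.5 was -4.08 (adjusted p = 4.09e-05 in edgeR). Deviations of same-numbered libraries from their group means, a check for pairing, correlated across 7362 features at 0.0209 for E13.5 minus E12.5, -0.0721 for E15.5 minus E13.5, -0.00857 for SGET mPGCLCs minus E12.5 and -0.0170 for SGET mPGCLCs minus E13.5.

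With a replicate left out, log2 fold changes that turned ran, from E12.5 to E13.5, from -0.81 to 0.44 for Rny1, -2.19 to 0.0078 for 7SL, -0.31 to 0.46 for Rmrp and -1.94 to 0.76 for Vaultrc5. For SGET mPGCLCs minus E12.5 they ran from -0.64 to 1.76 for 7SL, -6.74 to 1.17 for Rpph1 and -0.59 to 2.88 for Vaultrc5. For SGET mPGCLCs minus E13.5 they ran from -0.78 to 0.17 for Rny3, -0.27 to 0.51 for Rmrp and -7.13 to 0.78 for Rpph1. For Rny1 from E13.5 to E15.5 the range was -4.61 to -3.36.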

Other observations

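Fragments over 40 nt that match the members came to 3285 reads over the 8 libraries, beside 200920 of 18 to 40 nt. Rny3 had 1635 of them, Rmrp 763, Rn7sk 328, Rny1 299, 7SL 171, Rpph1 67 and Vaultrc5 22. For Rny3 they were 237 and 223 reads in E12.5, 101 and 586 in E13.5, 11 and 406 in E15.5, and 41 and 30 in SGET mPGCLCs. In CPM these were 31.8 and 16.4, 8.39 and 29.7, 0.809 and 15.3, and 4.02 and 3.15 in the same order, so E13.5 overlapped with E12.5 and with E15.5, and E15.5 lay below E12.5.

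Sequences antisense to the members, of 18 to 40 nt and found in no sense transcript of them, had 0 of 112730634 reads in the 8 libraries together, which allows up to 0.0266 CPM.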
